A study of Mus musculus with 28 samples.

Results

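The genes followed across the series mark blood-derived immune cells, and there were 10 of them: *Ptprc*, *Cd68*, *Adgre1*, *Csf1r*, *Lyz2*, *Cd3e*, *Cd79a*, *Cd74*, *H2-Aa* and *Tyrobp*. They were picked by symbol, and all 10 had a row among the 28244 genes of the count table, which held 28 mouse samples in 11 groups. The study asked whether neural stem cells (NSCs) exist outside the brain. It compared cultured peripheral NSCs (pNSCs) with brain NSCs, with lung and tail cells and with neural crest stem cells (NCSCs). RNA selected for poly-A tails was sequenced in every sample.

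The Nes-GFP experiment, in which green fluorescent protein (GFP) is driven by Nestin sequences, held brain NSCs, pNSCs from sorted GFP+ cells of adult lung, pNSCs from sorted GFP+ cells of postnatal tail, lung cells and tail cells, with 2 samples each. The titles of these samples do not name the reporter, and the labels call the last 2 groups only Lung and Tail, so that their age and whether they had been cultured are not given. The Wnt1-Cre-mTmG experiment crossed a Cre driver for neural crest with a reporter that turns from Tomato to GFP, and held brain NSCs, tail pNSCs, dorsal root ganglion (DRG) pNSCs and, from adult wild-type (WT) mice, DRG NCSCs, with 3 samples each. Its pNSCs were grown from unsorted postnatal cells and were Tomato+ and GFP-. The Sox2-GFP experiment held brain NSCs and postnatal lung pNSCs, with 3 samples each, and shared the 2 samples of lung cells. Adult tissue came from mice of about 4 to 6 weeks and postnatal tissue from about day 1 to 5. Every sample is labelled C57BL/6, whereas the study's methods give CD1 or CD1 and C3H mixtures as the WT background. Clusters of pNSCs were picked by hand and were usually clonal, and the brain NSCs had been passaged several times before use. Nothing in the labels says whether replicates were separate animals or separate cultures, so p-values measure only the spread between these samples.

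Leukocytes descend from blood stem cells and not from the neural tube, which gives rise to brain NSCs. *Ptprc* encodes CD45, the phosphatase on the surface of nearly all leukocytes. Macrophages, which live in most tissues and include the microglia of the brain and the alveolar macrophages of the lung, carry the CSF1 receptor (*Csf1r*), the adhesion receptor F4/80 (*Adgre1*), the endosomal glycoprotein CD68 and lysozyme M (*Lyz2*), and signal through the adaptor DAP12 (*Tyrobp*). *Cd3e* encodes a chain of the T cell receptor complex and *Cd79a* a chain of the B cell receptor. *Cd74*, the invariant chain, and *H2-Aa*, a class II alpha chain, serve presentation of antigen to T cells.

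The promoters of 3 of the genes are shown because they stand for the 3 patterns seen over the groups: *Lyz2* was high in lung cells and in DRG NCSCs, *H2-Aa* was high in lung cells and near 0 in DRG NCSCs, and *Cd68* was detected in all 28 samples. RefSeq windows of 300 bases, from 250 before to 50 after the start of transcription, were matched for 6 of the 10 genes on GRCm38.p6. Each is printed 5′ to 3′ on the strand of its gene, and capitals mark AGGAAG, a core bound by ETS factors such as PU.1, and CCAAT, on either strand.
*Lyz2*, chr10:117282223-117282522, minus strand: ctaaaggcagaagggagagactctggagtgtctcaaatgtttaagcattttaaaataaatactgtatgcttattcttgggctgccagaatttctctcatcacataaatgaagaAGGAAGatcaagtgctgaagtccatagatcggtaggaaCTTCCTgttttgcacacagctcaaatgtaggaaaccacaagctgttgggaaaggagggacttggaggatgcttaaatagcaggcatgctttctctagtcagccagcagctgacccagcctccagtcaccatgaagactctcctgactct
*H2-Aa*, chr17:34287774-34288073, minus strand: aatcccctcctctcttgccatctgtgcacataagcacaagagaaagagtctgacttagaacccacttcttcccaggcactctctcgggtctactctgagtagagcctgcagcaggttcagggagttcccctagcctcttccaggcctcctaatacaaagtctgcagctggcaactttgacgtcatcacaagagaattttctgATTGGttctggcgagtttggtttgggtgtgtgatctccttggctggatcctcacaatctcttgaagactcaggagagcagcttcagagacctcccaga
*Cd68*, chr11:69666121-69666420, minus strand: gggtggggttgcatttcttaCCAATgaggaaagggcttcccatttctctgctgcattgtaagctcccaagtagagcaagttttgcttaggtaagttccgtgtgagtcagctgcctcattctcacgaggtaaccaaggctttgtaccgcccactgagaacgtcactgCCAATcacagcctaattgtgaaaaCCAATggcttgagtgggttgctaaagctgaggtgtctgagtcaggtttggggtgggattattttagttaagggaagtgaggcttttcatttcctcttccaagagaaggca

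*Lyz2* held 2 matches to AGGAAG, a string found in 35.4% of 32841 RefSeq windows of this length, and none to CCAAT. *H2-Aa* held 1 match to CCAAT, which was in 37.4% of the windows, and *Cd68* held 3. The other windows matched were those of *Ptprc* with 3, *Cd3e* with 2 and *Cd79a* with 1 match to AGGAAG. Binding was not measured here.

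**Figure D1:**
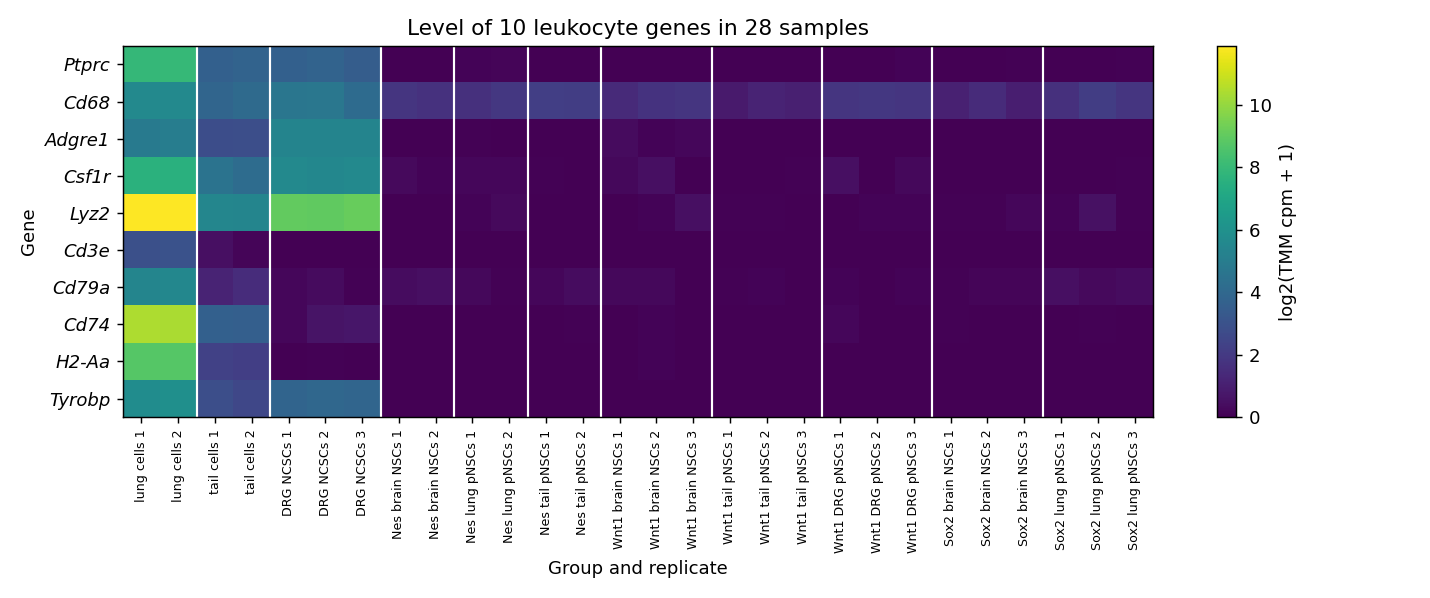
Level of the 10 leukocyte genes (rows) in each of the 28 samples (columns, by group and replicate), coloured by log2 of cpm plus 1 (cpm are counts scaled to library size by TMM). Lung cells were high in all 10 rows, DRG NCSCs in 6, and the 21 samples of brain NSCs and pNSCs were near 0 except in the *Cd68* row.

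Total counts ran from 9808246 to 22637031 per sample. The 10 genes took 0.596% and 0.602% of all counts in the 2 samples of lung cells, 0.0631% to 0.0678% in DRG NCSCs, 0.0106% and 0.0108% in tail cells, and at most 0.000434% in any sample of brain NSCs or pNSCs. Levels below are cpm (counts scaled to library size, with TMM factors over all samples), as mean ± SD, and 3 counts in a library were taken as the smallest amount that can be told from 0, for counting error alone. The third sample of DRG NCSCs stood apart from the other two over all genes, with a chi-square per degree of freedom of 16.8 and 21.0 against 1.09 to 2.82 in other replicate pairs. In bulk samples, fewer cells of a type and less RNA per cell cannot be told apart.

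In lung cells, every one of the 10 genes was well above the floor. *Lyz2*, the bactericidal enzyme of macrophages, neutrophils and some lung epithelium, gave 70503 and 61732 counts, or 3754.6 ± 17.8 cpm (n = 2). *Cd74* gave 25388 and 21611 counts (1333.2 ± 20.3 cpm, n = 2) and *H2-Aa* gave 8026 and 7016 (427.1 ± 1.5 cpm, n = 2). These were the 3 highest of the 10, and both samples were close in each. Per kilobase of annotated exon, which allows levels of different genes to be set side by side, lung cells had 2853 cpm of *Lyz2*, 794 of *Cd74*, 112 of *H2-Aa* and 85.2 of *Tyrobp*, down to 1.67 of *Cd3e*.

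*Ptprc* had 4452 and 3996 counts in lung cells (240.1 ± 5.3 cpm, n = 2) and *Csf1r* 3660 and 3045 (190.0 ± 6.0 cpm, n = 2). The remaining macrophage genes were lower, with *Tyrobp* at 1019 and 977 counts, *Cd68* at 904 and 770, and *Adgre1* at 532 and 519. Both lymphocyte receptor genes were present as well. *Cd79a* gave 792 and 725 counts (43.1 ± 1.6 cpm, n = 2) and *Cd3e* 124 and 115 (6.80 ± 0.31 cpm, n = 2), the lowest of the 10 in these cells.

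Tail cells carried the same genes at lower levels. *Lyz2* had 765 and 658 counts (42.3 ± 0.50 cpm, n = 2), *Csf1r* 389 and 272, *Cd68* 246 and 257, *Cd74* 208 and 174, *Ptprc* 204 and 202, *Tyrobp* 113 and 76, *Adgre1* 109 and 99, and *H2-Aa* 71 and 56. The B cell gene *Cd79a* gave 23 and 29 counts and the T cell gene *Cd3e* 7 and 2, the second of which is under the floor. Between the 2 tissues all 10 genes were called higher in lung cells (edgeR quasi-likelihood test, adjusted p under 0.05 and at least 1 on the log2 scale), where 43.4% of 16948 genes tested were called in either direction and 22.9% higher and 20.5% lower in lung cells.

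The gap between lung and tail cells was uneven over the genes. *Cd74* was 117-fold higher in lung cells, *H2-Aa* 113-fold and *Lyz2* 88.7-fold, with log2 differences of 6.84 (SE 0.05), 6.79 (SE 0.07) and 6.44 (SE 0.04). *Cd79a* was 27.5-fold, *Cd3e* 26.2-fold and *Ptprc* 19.8-fold higher. The other macrophage genes differed least: *Tyrobp* 10.2-fold, *Csf1r* 9.73-fold, *Adgre1* 4.83-fold and *Cd68* 3.15-fold. No sample of tail cells reached the lower lung sample in any of the 10 genes. How many of all genes tested were likewise without overlap was not counted, so this is a description only.

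Lymphocyte genes on the lists were higher in lung cells throughout, and other classes less uniformly. Of 8 B lymphocyte genes and 14 T and NK lymphocyte genes, all 8 and all 14 were called higher in lung than in tail cells, with median log2 differences of 6.04 and 5.52 beside -0.01 over all genes tested. In both tail cell samples 1 of the 8 and 7 of the 14 were at or under 3 counts, so their calls are a description only. Among the highest in lung cells were *Ighm*, the heavy chain of IgM (235.6 ± 1.3 cpm, n = 2), and *Cd79b* (53.4 ± 2.0), and, of the T and NK genes, the granzyme *Gzma* (28.1 ± 4.9), the kinase *Lck* (24.4 ± 0.08) and *Cd2* (21.4 ± 2.8). Among 20 monocyte and macrophage genes 18 were called higher and none lower, with a median of 2.38, beside 22.9% higher and 20.5% lower over all genes tested. *Ctss*, a protease of antigen processing, led this list in lung cells (175.8 ± 0.22 cpm), with *Mrc1*, the mannose receptor (119.8 ± 0.24), and *Mertk* (73.3 ± 0.55) next.

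Alveolar macrophage and dendritic cell genes set the tissues furthest apart: 9 of 10 were called higher in lung cells, with a median log2 difference of 7.10. In both tail cell samples 5 of the 10 were at or under 3 counts, so this count and median are a description only. *Chil3*, a chitinase-like protein of alveolar macrophages, gave 375.3 ± 15.1 cpm in lung cells and 6 and 13 counts in tail cells (log2 difference 9.33, SE 0.10). *Itgax* (82.1 ± 3.2 cpm) and *Ear2* (46.9 ± 1.5) came next. Of 9 granulocyte and mast cell genes tested, 4 were called higher in lung and 1 higher in tail cells (median 0.77), and of 6 microglia genes 3 and 1 (median 0.80). Over all genes tested, 22.9% were called higher in lung and 20.5% higher in tail cells, so these counts are a description only. In tail cells *Kit* (40.9 ± 1.2 cpm), the neutrophil gene *S100a9* (37.4 ± 2.5) and the mast cell protease *Cpa3* (29.0 ± 1.3) led the granulocyte and mast cell list.

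Both tissues also held blood cells and their own parenchyma. Red-cell genes summed to 1131 to 1165 cpm in lung cells and 266 in each sample of tail cells, with *Hbb-bs* highest. Epithelial markers summed to 25033 to 25532 cpm in lung cells, led by *Scgb1a1* and *Sftpc*, and fibroblast markers to 72237 to 73688 cpm in tail cells, led by *Col1a1*. These are sums of marker levels and not proportions of cells, and their part in the leukocyte levels was not tested.

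**Figure D2:**
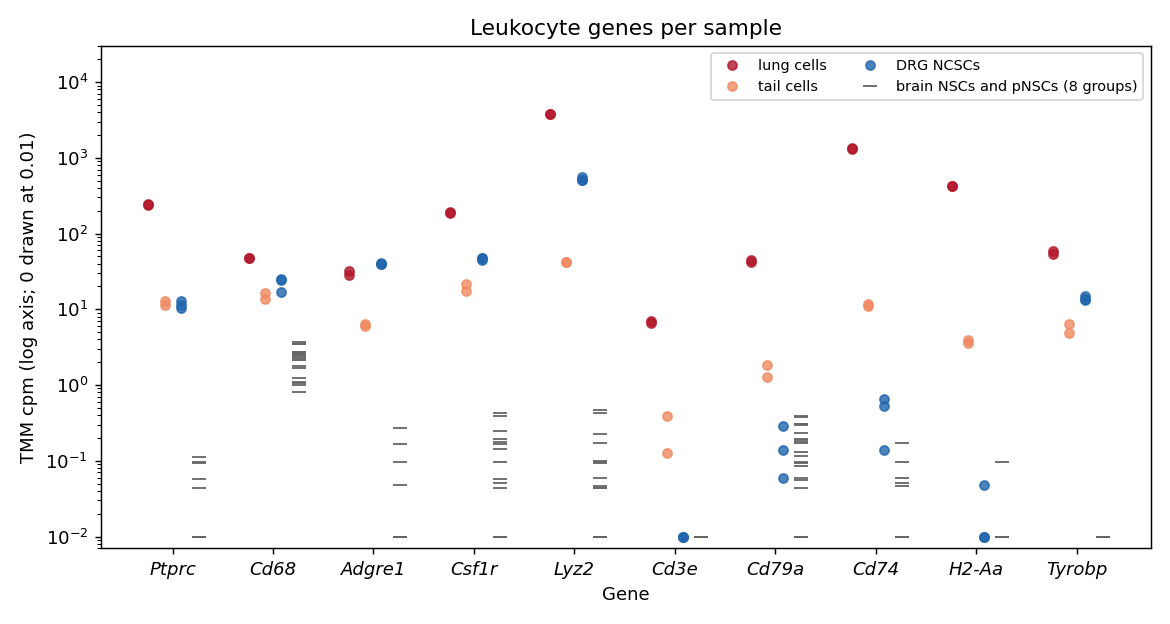
TMM cpm of each leukocyte gene in every sample (log axis, 0 drawn at 0.01), for lung cells (n = 2), tail cells (n = 2), DRG NCSCs (n = 3) and the 8 groups of brain NSCs and pNSCs (21 samples, grey dashes). DRG NCSCs lay above tail cells for *Lyz2*, *Csf1r*, *Adgre1*, *Tyrobp* and *Cd68*, and below them for *Cd74*, *H2-Aa*, *Cd3e* and *Cd79a*.

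In the DRG NCSCs, the genes split by leukocyte class. The macrophage genes were high in all 3 samples: *Lyz2* gave 11060, 10689 and 9365 counts (525.2 ± 22.1 cpm), *Csf1r* 1017, 940 and 807 (46.6 ± 1.5 cpm), and *Adgre1* 853, 848 and 673 (39.9 ± 0.43 cpm). *Cd68* gave 519, 526 and 287 counts (22.0 ± 4.5 cpm), *Tyrobp* 286, 311 and 234 (13.97 ± 0.76 cpm) and *Ptprc* 247, 271 and 176 (11.6 ± 1.3 cpm). The lymphocyte and class II genes were close to 0. *Cd3e* had 0 counts in each sample, *H2-Aa* 0, 1 and 0, *Cd79a* 3, 6 and 1, and *Cd74* 3, 11 and 11.

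Against the brain NSCs of the same experiment, 6 genes were tested, since the filter on low counts removed *Cd3e*, *Cd79a*, *Cd74* and *H2-Aa*. All 6 were called higher in DRG NCSCs, beside 36.9% of 14448 genes called in either direction, 22.1% higher and 14.8% lower. Apart from *Cd68*, no brain NSC sample held more than 5 counts of any of the 6, so these genes passed the filter through the DRG NCSCs and had to differ. Brain NSCs held 0, 1 and 5 counts of *Lyz2*, and the log2 difference was 11.5 (SE 0.14, adjusted p = 1.4e-20, edgeR), and 13.2 without the third, 10.9 without the first brain NSC sample. *Ptprc* was at 0 in all 3 brain NSC samples and therefore at least 40.1-fold higher in DRG NCSCs, and *Tyrobp*, also at 0, at least 48.3-fold. *Adgre1*, with 6 counts over the brain NSCs, was higher by a ratio of 223 (95% counting interval 102 to 607), and *Csf1r* was 248-fold higher (log2 7.95, and 8.94 without the second or 7.34 without the third brain NSC sample). *Cd68*, which brain NSCs also held, was 10.1-fold higher (log2 3.34, SE 0.19, adjusted p = 1.81e-11, edgeR). The count was 6 again without the third DRG NCSC sample, and 7 of 10 with no filter on low counts.

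The pNSCs of the same experiment were also lower than the DRG NCSCs in these genes. The DRG NCSCs came from adult WT mice and these pNSCs from postnatal Wnt1-Cre-mTmG mice. Cell type, age and genotype therefore differ together here and cannot be told apart. Of the 6 genes tested, 6 were called lower in tail pNSCs (37.9% of genes called in either direction, 15.3% higher and 22.6% lower) and 6 lower in DRG pNSCs (38.3%, 15.1% higher and 23.3% lower). Apart from *Cd68*, no sample of these pNSCs held more than 5 counts of any of the 6. The genes other than *Cd68* thus passed the filter through the DRG NCSCs and had to differ, so both counts are a description only. These 2 comparisons share the DRG NCSC samples with each other and with the one above. *Adgre1* was at 0 in all 6 pNSC samples, at least 262-fold below DRG NCSCs in tail pNSCs and at least 136-fold in DRG pNSCs, whose libraries were shallower. *Tyrobp* was at 0 in the same 6 samples, at least 91.8-fold and 47.5-fold lower. *Cd68* was 21.2-fold lower in tail pNSCs and 8.41-fold lower in DRG pNSCs.

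Other macrophage genes were also present in the DRG NCSCs. Of 20 listed monocyte and macrophage genes, 19 were called higher than in brain NSCs and 1 lower, with a median log2 difference of 7.24 beside 0.01 over all genes tested, of which 22.1% were called higher. Apart from *Cd14*, *Cd163* and *Mertk*, no brain NSC sample held more than 2 counts of any of the 20, so that these passed the filter through the DRG NCSCs and the count is a description only. The exception was *Cd163*, a scavenger receptor, with 2, 3 and 3 counts. It is not limited to macrophages in these data, since brain NSCs and pNSCs held 30 to 503 counts of it. *Mertk*, a receptor for dying cells (48.7 ± 0.78 cpm, n = 3), *Ctss* (45.2 ± 2.3) and the complement subunit *C1qb* (34.9 ± 2.9) were highest. All 10 listed pan-haematopoietic genes were called higher, led by the actin bundling protein *Lcp1* (40.3 ± 3.7 cpm), *Laptm5* (28.3 ± 1.1) and the phosphatase *Ptpn6* (17.7 ± 1.7). Apart from *Coro1a* and *Ptpn6*, no brain NSC sample held more than 5 counts of any of them. The others thus passed the filter through the DRG NCSCs, and this count too is a description only.

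Genes of other leukocytes were fewer in DRG NCSCs. Of 10 granulocyte and mast cell genes, 3 had a mean of at least 1 cpm, *Kit* (6.07 ± 0.61 cpm, n = 3), *S100a8* (1.76 ± 0.36) and *S100a9* (1.51 ± 0.32). Of 3 tested, 2 were called higher and 1 lower than in brain NSCs, beside 22.1% and 14.8% of all genes tested. *S100a8* and *S100a9* had at most 1 count in any brain NSC or pNSC sample. Both passed the filter through the DRG NCSCs, so these counts are a description only. Of 14 T and NK genes 8 were at 0 in every sample and 2 had a mean of at least 1 cpm. One of these was *Gzmb*, granzyme B, with 4145, 4104 and 2591 counts (180.4 ± 24.4 cpm, n = 3), whereas its partners *Gzma* and *Nkg7* were at 0 in each sample (both chosen after their values were seen). Of 8 B lymphocyte genes 5 were at or under 3 counts in every sample, and the highest was *Cd22* at 1.08 ± 0.17 cpm. The class II genes *H2-Ab1* and *H2-Eb1*, also looked up after their values were seen, gave 28, 9 and 20 counts and 8 in each sample. Neither was particular to DRG NCSCs: the 21 brain NSC and pNSC samples held 9 to 39 counts of *H2-Ab1* and 1 to 18 of *H2-Eb1*.

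Of the 10 alveolar macrophage and dendritic cell genes, 2 passed the filter, *Siglecf* (16.4 ± 0.57 cpm, n = 3) and the scavenger receptor *Marco* (13.3 ± 1.9), and both, with at most 2 counts in any brain NSC or pNSC sample, passed it through the DRG NCSCs and had to be called higher there. The third highest, *Pparg*, was at 0.62 ± 0.20. From the microglia list, the purine receptor *P2ry12* gave 782, 830 and 518 counts (35.5 ± 4.6 cpm) and was higher than in brain NSCs by 5.95 on the log2 scale (SE 0.20, adjusted p = 1.13e-14, edgeR). *Olfml3* (64.9 ± 2.7 cpm) and *Tmem119* (12.5 ± 0.44) were the other leaders. None of the 3 was particular to DRG NCSCs: *Olfml3* had 11 to 349 counts in the 21 brain NSC and pNSC samples, *Tmem119* had 376, 306 and 335 counts in Wnt1-Cre-mTmG tail pNSCs (15.96 ± 1.5 cpm), and *P2ry12* had 59 and 43 counts in Nes-GFP lung pNSCs. Red-cell genes in DRG NCSCs were at or under 3 counts in all 5 cases.

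The ligands of the CSF1 receptor were measured beside the receptor. *Csf1* gave 4233, 4098 and 2813 counts in DRG NCSCs (186.0 ± 17.9 cpm, n = 3) and was higher than in brain NSCs by 1.88 on the log2 scale (SE 0.06, adjusted p = 8.13e-15, edgeR), and *Il34*, the second ligand, gave 723, 699 and 619 counts (34.5 ± 1.7 cpm, log2 4.46, SE 0.13, adjusted p = 1.43e-15). Of 7 listed ligands and partners, 5 were tested and all 5 were called higher in DRG NCSCs, beside 22.1% of all genes tested. In the brain NSCs 3 of the 7 were at or under 3 counts in every sample, so this count is a description only. The neural crest markers *Ngfr* (1217.3 ± 25.3 cpm) and *Erbb3* (943.5 ± 77.0) stood well above each of the 10 leukocyte genes in these samples, so the labelled cell type had its markers. Of 6 listed NSC markers, *Sox2* and *Nes* were high and 4 were called lower than in brain NSCs.

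**Figure D3:**
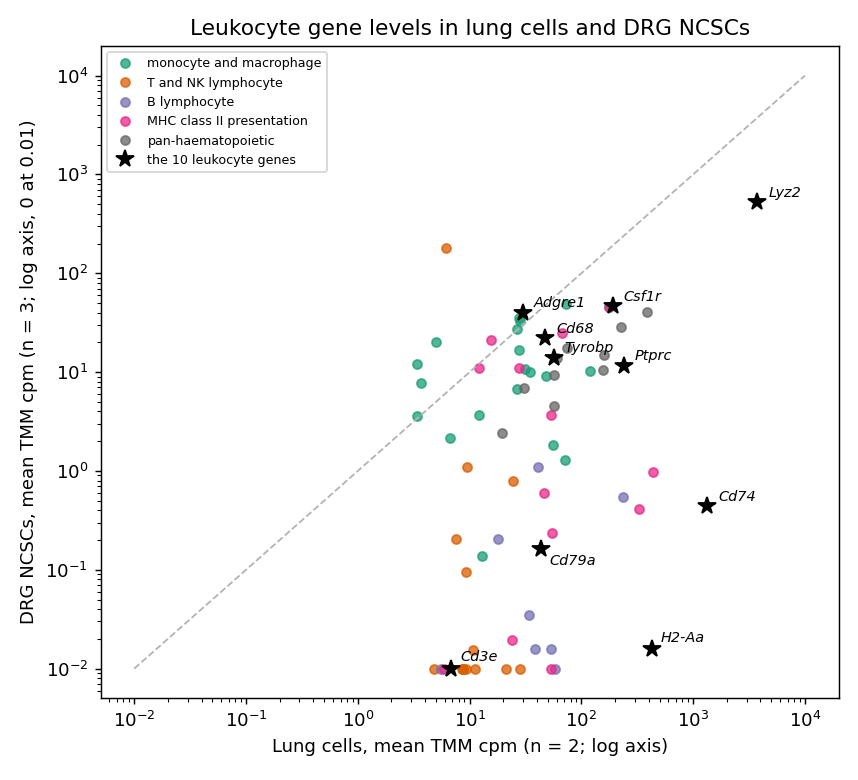
Mean TMM cpm of listed leukocyte genes in lung cells (horizontal, n = 2) and DRG NCSCs (vertical, n = 3; both log axes, 0 drawn at 0.01), coloured by list, with the 10 leukocyte genes as stars and a dashed line of equal level. *Adgre1* lay just above the line (30.0 and 39.9 cpm) among macrophage genes on both sides of it, and *H2-Aa* (427.1 and 0.016 cpm), *Cd74*, the B cell genes and most T cell genes lay far below it.

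Set side by side, lung cells and DRG NCSCs differed in which genes they held; they come from different experiments, and no test was made between them. *Adgre1* was 1.33 times as high in DRG NCSCs as in lung cells, the only member of the 10 that was higher there. *Cd68* was 2.15 times, *Tyrobp* 4.07 times, *Csf1r* 4.08 times, *Lyz2* 7.15 times and *Ptprc* 20.7 times as high in lung cells. For *Cd79a* the ratio was 267, for *Cd74* 3052, and *Cd3e*, at 0 in DRG NCSCs, was at least 38.6 times as high in lung cells. The complement genes *C1qa*, *C1qb* and *C1qc* gave 27.98, 27.9 and 26.3 cpm in lung cells and 33.0, 34.9 and 27.2 cpm in DRG NCSCs.

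In brain NSCs and pNSCs, leukocyte genes were at or near 0 in all 8 groups. *Cd3e* and *Tyrobp* had no count in any of the 21 samples. *Ptprc*, *Adgre1*, *Cd74* and *H2-Aa* did not pass 3 counts in any sample, with totals over the 21 of 7, 7, 6 and 1. *Csf1r* and *Lyz2* were at or under 3 counts in 18 samples each, with highest values of 5 and 10, and *Cd79a* in 14 samples, with a highest value of 8. At this depth a level of less than about 0.13 to 0.29 cpm could not be told from 0.

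Against lung or tail cells, all 10 genes were called lower in pNSCs of the same tissue name. In Nes-GFP lung pNSCs this compares with 55% of 16948 genes called in either direction (20.2% higher, 34.9% lower), and in Nes-GFP tail pNSCs with 46.7% (14.1% higher, 32.6% lower). Sox2-GFP lung pNSCs, from postnatal lung, were set against the same 2 lung samples, whose age is not given. They also had 10 genes called lower, with 56.3% of 16234 genes called (21.3% higher, 34.9% lower). Apart from *Cd68*, no pNSC sample held more than 10 counts of any of them, so that they passed the filter through the tissue cells. *Cd74* was at 0 in both Nes-GFP lung pNSC samples and at least 7928-fold below lung cells, *H2-Aa* at least 2540-fold and *Tyrobp* at least 338-fold. *Ptprc*, with 4 counts over the 2 samples, was lower by a ratio of 2335 (95% counting interval 912 to 8573). In tail pNSCs *Lyz2* was at 0, at least 244-fold below tail cells, and *Ptprc* at least 69.8-fold. Markers of other tissue cells were lower as well. In Nes-GFP lung pNSCs 6 of 6 fibroblast, 6 of 6 endothelial, 6 of 6 epithelial and 5 of 5 red-cell markers were called lower than in lung cells, with median log2 differences of -12.4, -10.2, -14.1 and -8.92, and in Nes-GFP tail pNSCs 6 of 6, 6 of 6, 5 of 6 and 4 of 5 were called lower than in tail cells. In the same order, 3, 3, 6 and 4 markers were at or under 3 counts in both lung pNSC samples. In both tail pNSC samples 2, 2, 6 and 3 were, so these counts are a description only. The part of these markers in the result was not tested. The bound for *Cd3e* in tail pNSCs was 1.49-fold, since tail cells held 7 and 2 counts, and its call was lost without the first tail cell sample (adjusted p = 0.0698, edgeR), leaving 9 of 10.

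**Figure D4:**
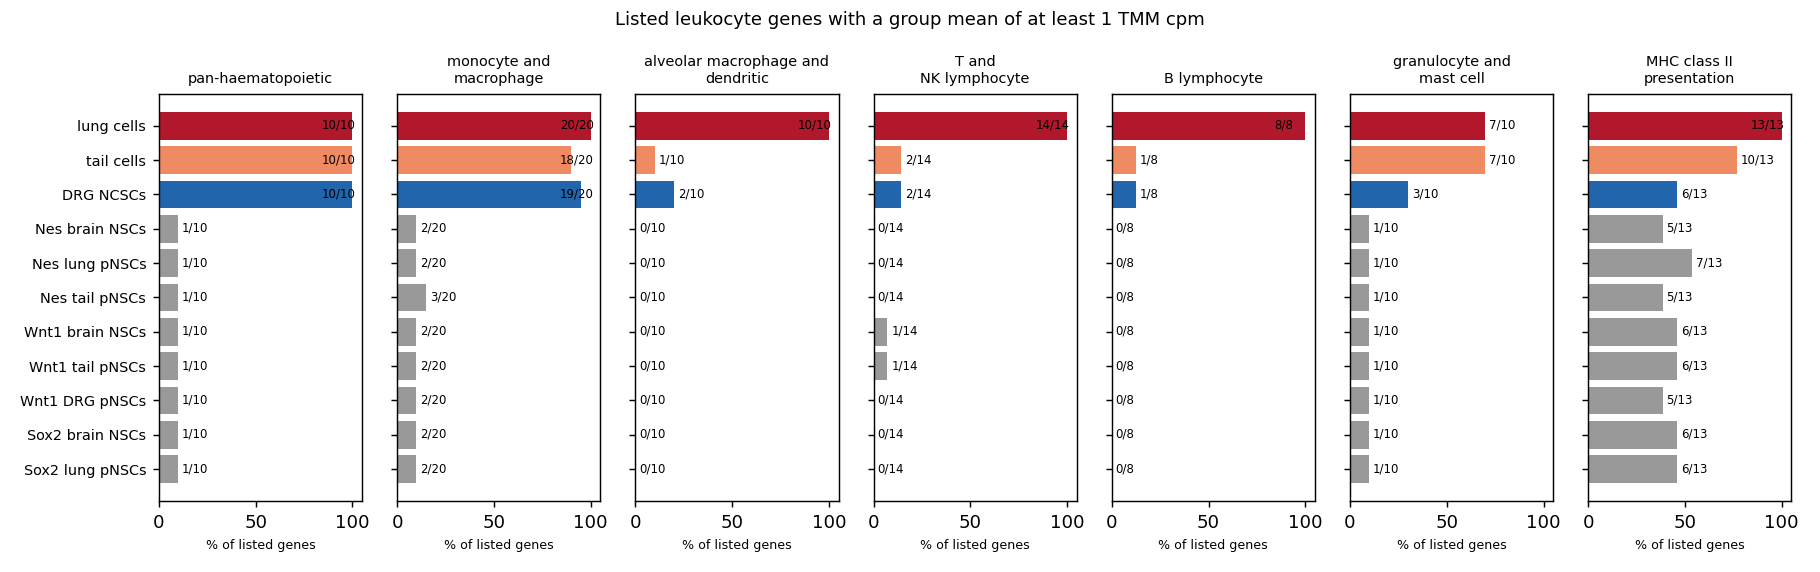
Percent of the genes of 7 leukocyte lists whose group mean was at least 1 TMM cpm, in each of the 11 groups (bars, with the number of genes beside each). Lung cells had every gene of 6 lists, DRG NCSCs had 10 of 10 pan-haematopoietic and 19 of 20 macrophage genes but 1 of 8 B cell genes, and brain NSCs and pNSCs had 1 to 3 genes in the first 2 lists. On the class II list brain NSCs and pNSCs had 5 to 7 of 13 genes, and DRG NCSCs had 6.

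*Cd68* was the exception among the 10, at 17 to 75 counts in every brain NSC and pNSC sample. Group means fell in the order lung cells (47.5 ± 0.70 cpm, n = 2), DRG NCSCs (22.0 ± 4.5, n = 3), tail cells (15.1 ± 1.9, n = 2), Nes-GFP tail pNSCs (3.58 ± 0.10, n = 2), Sox2-GFP lung pNSCs (2.73 ± 0.67, n = 3), DRG pNSCs (2.62 ± 0.11, n = 3), Nes-GFP lung pNSCs (2.44 ± 0.43, n = 2), Nes-GFP brain NSCs (2.39 ± 0.17, n = 2), Wnt1-Cre-mTmG brain NSCs (2.18 ± 0.43, n = 3), Sox2-GFP brain NSCs (1.29 ± 0.43, n = 3) and Wnt1-Cre-mTmG tail pNSCs (1.04 ± 0.23, n = 3). From Sox2-GFP lung pNSCs down to Wnt1-Cre-mTmG brain NSCs, neighbours in the order lay within 1 SD of each other, as did the last 2 groups. Its protein sits in late endosomes and lysosomes, and 11 or 12 of 12 listed lysosome genes, such as *Psap*, *Ctsb* and *Lamp1*, had a mean of at least 1 cpm in each of the 11 groups.

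*Cd68* was called higher in pNSCs than in brain NSCs in 1 comparison, lower in 1 and not called in the other 3. In the Sox2-GFP experiment lung pNSCs gave 45, 75 and 59 counts and brain NSCs 19, 41 and 17, without overlap in cpm, and *Cd68* was called higher in pNSCs (2.11-fold, log2 1.05, SE 0.20, adjusted p = 3e-07, edgeR). In the Wnt1-Cre-mTmG experiment tail pNSCs gave 18, 27 and 21 counts and brain NSCs 19, 24 and 30 from libraries of 9846360 to 11315870 counts against 19648349 to 22548268, which made 0.80, 1.26 and 1.07 cpm against 1.69, 2.31 and 2.53 cpm, without overlap. *Cd68* was called lower in tail pNSCs (2.10-fold, log2 -1.09, SE 0.31, adjusted p = 0.00575, edgeR). DRG pNSCs gave 30, 28 and 27 counts and did not pass the test against the same brain NSCs (log2 0.26, SE 0.30, adjusted p = 0.502). Nes-GFP tail pNSCs gave 63 and 69 counts against 50 and 47 in brain NSCs, a log2 difference of 0.56 (SE 0.22, adjusted p = 0.0222) that missed the limit on fold change. Nes-GFP lung pNSCs, with 45 and 49 counts, lay at the level of their brain NSCs (log2 -0.01, SE 0.23, adjusted p = 1).

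The other calls between pNSCs and brain NSCs rested on very few counts. In the Nes-GFP experiment 1 of 10 genes was called in lung pNSCs (8.71% of genes called, 4.56% higher and 4.15% lower), *Lyz2*, with 2 and 4 counts against 0 and 0, at least 1.06-fold higher (adjusted p = 0.011, edgeR). The call was lost without the second lung pNSC sample or without either brain NSC sample (adjusted p of 0.104, 0.0698 and 0.0738). None of the 10 was called in tail pNSCs by edgeR, by DESeq2 or without the filter (10.9% of genes called, 4.31% higher and 6.59% lower), and 2 had an unadjusted p under 0.05, *Cd68* and *Csf1r*.

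In the Wnt1-Cre-mTmG experiment 3 of 6 genes were called lower in tail pNSCs than in brain NSCs (18.2% of genes called, 9.16% higher and 9.05% lower). Besides *Cd68* these were *Adgre1*, at 0 against 3, 1 and 2 counts, both at or under the floor, and *Csf1r*, with 0, 0 and 1 against 2, 4 and 0 counts, a ratio of 11.4 (95% counting interval 1.39 to 526). The *Csf1r* call was lost without any one of 4 of the 6 samples, the first 2 of each group (adjusted p of 0.0816 to 0.276), and the log2 difference of *Cd68* fell under 1 without the first tail pNSC sample (-0.92), when 1 call was left, or the third brain NSC sample (-0.96). In DRG pNSCs 1 of 6 genes was called, *Adgre1*, at 0 against the same 3, 1 and 2 counts (9.53% of genes called, 3.12% higher and 6.41% lower), and none was called without the first brain NSC sample.

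In the Sox2-GFP experiment 2 of 10 genes were called higher in lung pNSCs than in brain NSCs, *Cd68* and *Cd79a* (15.7% of genes called, 5.76% higher and 9.99% lower). *Cd79a* gave 8, 5 and 7 counts against 1, 3 and 2, a ratio of 2.92 (95% counting interval 1.13 to 8.89; log2 1.51, SE 0.62, adjusted p = 0.0242, edgeR). Its call was lost without the first lung pNSC sample (adjusted p = 0.0818) or the first brain NSC sample (0.0878). No call was left without the first brain NSC sample, when the log2 difference of *Cd68* fell under 1.

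Many other leukocyte genes were near 0 in these groups. Of the 90 genes on the 8 leukocyte lists other than the members, 56 did not pass 3 counts in any of the 21 brain NSC and pNSC samples. Those that did included the transcription factor *Sall1* (1160 to 7282 counts), the receptors *Mertk* (122 to 747) and *Kit* (82 to 1106), and *Rfx5* and *Rfxap*, which act in the control of class II genes but are widely expressed. Microglia genes were among them too, with up to 376 counts of *Tmem119*, 349 of *Olfml3* and 59 of *P2ry12*. *Coro1a* (20 to 49 counts), *H2-Ab1* (9 to 39), *H2-DMa* (39 to 140) and *Ifi30* (24 to 148) were above 3 counts in each of the 21 samples. The genes named here were chosen after their values were seen. Of 14 T and NK genes, at most 1 had a group mean of 1 cpm or more in any of these 8 groups, and of 8 B lymphocyte genes none did.

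Genes with the most similar pattern over the 11 group means of log2(cpm + 1) were found for each member, as a description over 11 points of which 8 lie near 0. For *Ptprc* they were the GTPase *Rac2* (Pearson's r 1.00), *Dock2* and *Hpse*. For *Adgre1* they were *C1qa* (0.999), *C1qc* and *Tmem151a*, each highest in DRG NCSCs. *Lyz2* was matched by *Ctss* (0.998), the oxidase subunit *Cybb* and *Lcn2*, *Tyrobp* by *Cybb*, *Cd300lb* and *Ccl9*, and *Csf1r* by *Trpv2*, *Plaur* and *Ifi204*. The lymphoid and class II genes were matched by genes highest in lung cells, namely *Il18r1*, *Siglecg* and *Wfdc2* for *Cd3e*, *H2-Eb1*, *Fam124b* and *Car4* for *Cd79a*, *Plac8*, *Rasgrp4* and *Gprc5a* for *Cd74*, and *Ccdc42* and *2010016I18Rik* for *H2-Aa*. *Cd68* had the loosest matches, *Ilrun* (0.987), *Trip10* and *Map3k11*.

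On GRCm38, GENCODE places *Ptprc* at chr1:138062861-138175708, *Lyz2* at chr10:117277331-117282321, *Cd68* at chr11:69664213-69666153, *Adgre1* at chr17:57358691-57483527, *H2-Aa* at chr17:34282744-34287823, *Tyrobp* at chr7:30413760-30417585, *Cd79a* at chr7:24897381-24902197, *Cd3e* at chr9:44998740-45009627, *Cd74* at chr18:60803848-60812652 and *Csf1r* at chr18:61100598-61132149. Counts are over the exons of each gene. *Csf1r* overlaps *Hmgxb3* on the opposite strand and *Mir6983* on its own, *Cd3e* overlaps *Gm48719* and *Gm48720*, *Ptprc* overlaps *A130071D04Rik* and *Cd74* overlaps *Mir5107*, so that reads in the shared parts could not be told apart. The other 6 genes overlap no annotated gene. *Lyz2* has a close paralog, *Lyz1*, and how reads that match both were counted is not given, so its values are uncertain to that extent.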

How the data were processed

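Reads were single-end (NextSeq500, poly-A selection). The authors aligned them to GRCm38, naming HISAT2, Cufflinks and HTSeq in the processing notes, and deposited raw counts per gene; the strand setting is not given in the sources used here. From these counts, edgeR 4.0.16 (R 4.3.3) was fitted per experiment over all its groups (filterByExpr with minimum count 10 and total 15, TMM, quasi-likelihood, two-sided, Benjamini-Hochberg over all genes tested). A gene was called at adjusted p under 0.05 and an absolute log2 difference of at least 1. Where an adjusted p underflowed, the SE is given. Differences between experiments were contrasts in 1 fit of 28 samples. A fold against a group at 0 is a lower bound against 3 counts per library; against a group with at most 3 counts in every library and some above 0, the ratio has an exact (Clopper-Pearson) 95% interval; both cover counting error only. Named are the 10 members, the 3 highest genes of each list in the group described, and the 3 genes most like each member. A few genes this rule names are not reported here. The 17 gene lists and the members were chosen with earlier results of these data known. Alternatives were DESeq2 1.42.0, RLE scaling, no filter, 2 groups alone, a replicate block, no limit on fold change and leaving out each sample. Same-numbered replicates did not deviate together (r of -0.034 to 0.069).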

Additional observations from a re-analysis of the deposited data

Results flagged for a closer look

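For 3 values, the difference between experiments in the effect of pNSC against brain NSC passed a test of the difference itself (contrast over 28 samples, edgeR quasi-likelihood, Benjamini-Hochberg over 17393 genes, of which 48.7% passed for tail and 46.9% for lung pNSCs). For *Cd68* the tail pNSC effect was larger in the Nes-GFP than in the Wnt1-Cre-mTmG experiment by 1.65 on the log2 scale (SE 0.41, adjusted p = 0.000859), with 2 of 2 Nes-GFP tail pNSC samples above both brain NSC samples and 3 of 3 Wnt1-Cre-mTmG tail pNSC samples below all 3 of theirs in cpm. For *Cd68* the lung pNSC effect was smaller in the Nes-GFP than in the Sox2-GFP experiment, a log2 difference of -1.05 (SE 0.38, adjusted p = 0.0201), which did not pass in 5 fits that left out 1 sample (adjusted p up to 0.113). For *Cd79a* the same contrast gave -2.90 (SE 0.93, adjusted p = 0.00901), from 4 and 1 counts in Nes-GFP lung pNSCs, 6 and 8 in their brain NSCs, 8, 5 and 7 in Sox2-GFP lung pNSCs and 1, 3 and 2 in their brain NSCs. Experiment and reporter line, and for lung pNSCs the age of the tissue, differ together here and cannot be told apart.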

How the results depend on the processing

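Calls on tissue cells and DRG NCSCs kept their counts within 1.5 times of the reported ones under every alternative, and those between pNSCs and brain NSCs, which rest on few counts, did not. With only the 2 groups compared in the fit, 0 genes were called in Nes-GFP lung pNSCs against brain NSCs, 1 in Wnt1-Cre-mTmG tail pNSCs, 0 in DRG pNSCs and 1 in Sox2-GFP lung pNSCs. With no limit on fold change, 1 was called in Nes-GFP tail pNSCs. Leaving out 1 sample at a time gave 0 to 1 in Nes-GFP lung pNSCs, 0 to 1 in Nes-GFP tail pNSCs (*Csf1r*, without the second brain NSC sample), 1 to 3 in Wnt1-Cre-mTmG tail pNSCs, 0 to 1 in DRG pNSCs, 0 to 3 in Sox2-GFP lung pNSCs, and 1 to 2 for the lung contrast between experiments. The log2 difference of *Cd68* in Nes-GFP lung pNSCs changed sign to 0.017 with DESeq2, 0.015 with RLE scaling, 0.012 with no filter and 0.017 with 2 groups, and ranged over 1-sample omissions from -0.19 to 0.18. That of *Csf1r* there ranged from -0.71 to 0.62, in DRG pNSCs *Csf1r* from -0.84 to 1.24 and *Lyz2* from -2.004 to 0.36, and *Lyz2* in Sox2-GFP lung pNSCs from -0.30 to 1.89. The causes were not tested. The replicate block left 90 of 91 results on their side of the threshold, and *Csf1r* in Wnt1-Cre-mTmG tail pNSCs lost it (log2 -3.00, adjusted p = 0.0532). Library totals in place of TMM shift tail pNSCs against tail cells by 0.19 (log2), lung against tail cells by 0.14 and Sox2-GFP lung pNSCs against lung cells by 0.12. Depth limits any statement on genes at 0 to 3 counts.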
